A study of Mus musculus with 10 samples.

Results

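Spon2, which encodes mindin, and Spon1, which encodes F-spondin, belong to the spondin family, and they are described here in the cerebellum of Bmal1 knockout and wild-type mice. They were selected on a measured value: Spon2 had the largest rise in the knockout of all genes compared, and Spon1 was taken with it as its relative. These are 2 of the 22046 genes in the deposited tables. The values of Spon2 by genotype are therefore given as a description with no test, while Spon1 was tested.

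Spondins are secreted proteins of the extracellular matrix. Both carry a spondin domain and thrombospondin repeats, a fold through which matrix proteins bind other matrix proteins and cell surfaces, and F-spondin has more of these repeats than mindin and a reelin-like domain as well. F-spondin was found in the floor plate of the developing spinal cord, where it guides commissural axons, and it binds the amyloid precursor protein App and the reelin receptor Lrp8. Mindin promotes adhesion and outgrowth of cultured hippocampal neurons, binds bacterial lipopolysaccharide and is a ligand for integrins of immune cells. Bmal1 (gene symbol Arntl) encodes the transcription factor that pairs with CLOCK, binds E-box motifs and drives the circadian clock.

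The study asked what loss of Bmal1 does to the cerebellar transcriptome and its translation, in a mouse with autism-like behaviour. The knockout animals were Bmal1-/- and the wild-type animals Bmal1+/+ littermates, born to heterozygous parents of C57BL/6 background and kept in a cycle of light and dark. The allele is lost from the germ line, so every cell type of the knockout lacks it and not the cerebellum alone, and the labels used here do not say which exons are removed. They give no age, sex or time of day of dissection. Whole frozen cerebellum was lysed, and each lysate was split into total RNA and ribosome footprints, the fragments that ribosomes shield from RNase. The tables hold both kinds of library for knockout animals 1 and 3 and wild-type animals 2 and 3, so n = 2 for each genotype. Footprint RPKM over total RNA RPKM of an animal is its translational efficiency (TE).

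Spon2 was close to absent from wild-type cerebellum and abundant in the knockout. This gene (ENSMUSG00000037379) lies on the minus strand of mm10 chromosome 5, from 33198184 to 33218455, with 6 exons and a coding sequence of 990 bp. Its total RNA was 157 RPKM in knockout 1 and 146 RPKM in knockout 3, against 0.492 RPKM in wild type 2 and 0.806 RPKM in wild type 3. RPKM is reads scaled to a length and to the depth of the library. Both knockout animals were far above both wild-type animals, and the knockout animals differed little from each other. The means were 151 ± 7.84 RPKM in the knockout and 0.649 ± 0.222 RPKM in the wild type (SD, n = 2 each), a ratio of 233. On the log2(RPKM + 1) scale, which understates the change of a gene this low in one group, the difference was 6.53 (SE 0.13). In whole tissue, more cells that contain a transcript and more of it per cell cannot be told apart.

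The wild-type values rested on few reads, so the ratio is far less certain than the level in the knockout. The recovered total RNA reads of Spon2 were 3786 in knockout 1 and 3912 in knockout 3. Wild type 2 had 8 (95% exact Poisson interval 3.45 to 15.8) and wild type 3 had 14 (7.65 to 23.5), intervals that cover counting error only. Reads assigned to Spon2 were thus counted in both wild-type animals, in numbers that do not separate these animals from each other. The origin of these few reads was not tested.

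Ribosome footprints gave the same picture for Spon2. They reached 202 RPKM in knockout 1 and 262 RPKM in knockout 3, against 0.732 RPKM in wild type 2 and 0.881 RPKM in wild type 3. The means were 232 ± 42.2 RPKM in the knockout and 0.806 ± 0.106 RPKM in the wild type (SD, n = 2 each), a ratio of 288 and a log2 difference of 7.0 (SE 0.18). These values stand for 4777 and 4579 reads in the knockout animals, against 16 (9.15 to 26.0) and 14 reads in the wild-type animals. The Spon2 mRNA of the knockout was thus carried by ribosomes, and footprints and total RNA differed between the genotypes by a like factor.

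The TE of Spon2 overlapped between the genotypes. It was 1.29 in knockout 1 and 1.80 in knockout 3, against 1.49 in wild type 2 and 1.09 in wild type 3. The log2 ratio of the mean TE values, knockout over wild type, was 0.26. Fitted on the log2(RPKM + 1) scale, the log2 difference in TE was 0.47 (SE 0.23, 95% interval -0.07 to 1.00). That fitted value rests on the few wild-type reads and on the 1 added to RPKM. With 0.1 added in place of 1 it was 0.30. On the log2(RPKM + 1) scale it was 0.71 without knockout 1 and 0.23 without knockout 3. In the order of its levels, knockout footprints were above knockout total RNA without overlap, and wild-type footprints and wild-type total RNA came last and overlapped each other.

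**Figure D1:**
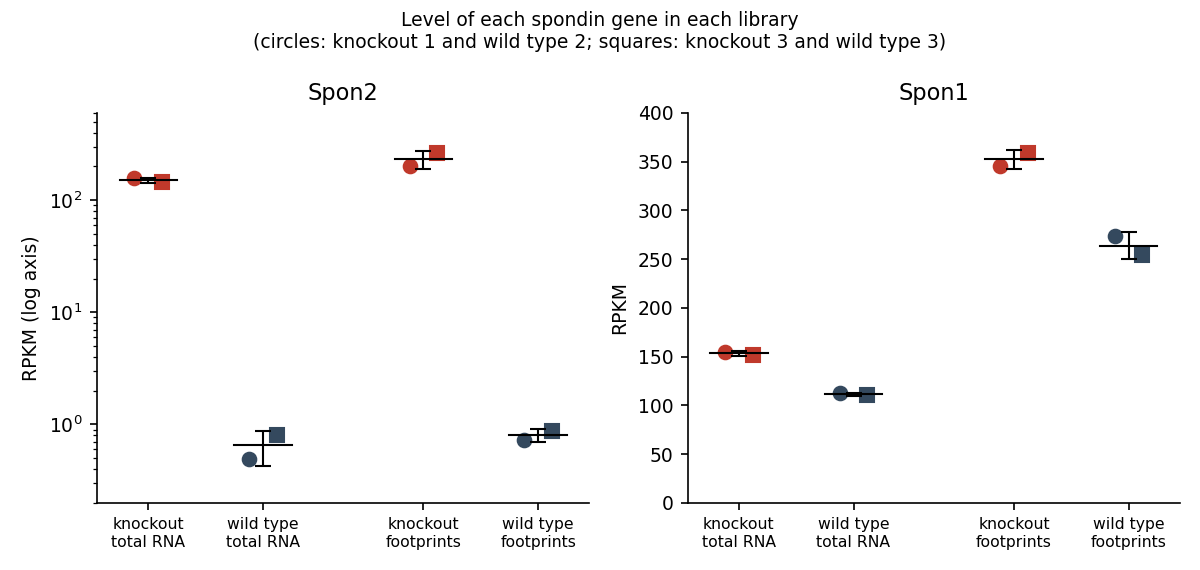
RPKM of Spon2 (left, log axis) and Spon1 (right, linear axis from 0) in each library, with points for animals and bars for mean ± SD of 2 animals. Spon2 lies between 146 and 262 RPKM in all knockout libraries and between 0.492 and 0.881 RPKM in all wild-type libraries, while Spon1 is abundant in both genotypes and higher in the knockout.

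Spon1 was abundant in both genotypes and moderately higher in the knockout. It (ENSMUSG00000038156) lies on the plus strand of chromosome 7, from 113765998 to 114043370, with 16 exons and a coding sequence of 2421 bp. Its total RNA was 155 and 152 RPKM in the knockout animals, against 112 and 110.2 RPKM in the wild-type animals. The groups did not overlap, and the animals of a genotype lay within a few RPKM of each other. The means were 153 ± 2.42 RPKM in the knockout and 111 ± 1.42 RPKM in the wild type (SD, n = 2 each), a ratio of 1.38. With limma across all genes, Spon1 rose in total RNA by 0.46 on the log2 scale (SE 0.08, 95% interval 0.26 to 0.65, adjusted p = 0.0382). It was 1 of 315 genes called higher, which is 2.48% of the 12690 tested. A gene is called here where its Benjamini-Hochberg adjusted p is under 0.05. This call was fragile: without knockout 1, knockout 3, wild type 2 or wild type 3, the adjusted p in limma lay between 0.0661 and 0.251, and with no filter or no variance trend it was 0.0853 and 0.0687. An exact permutation test of 2 against 2 animals cannot go below a two-sided p of 0.333.

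Spon1 footprints were 346 and 359 RPKM in the knockout animals, against 274 and 254 RPKM in the wild-type animals. These groups did not overlap either. The means were 353 ± 9.49 RPKM in the knockout and 264 ± 13.8 RPKM in the wild type (SD, n = 2 each), a ratio of 1.34. The log2 difference of 0.42 (SE 0.11, 95% interval 0.14 to 0.70) did not pass the threshold, with an adjusted p of 0.283 in limma. Of the 12447 genes tested in footprints, 29 passed (0.233%), and 16 of these were higher in the knockout (0.129%). The size of the footprint difference was thus close to that in total RNA, in a comparison that called fewer genes.

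The TE of Spon1 was 2.23 and 2.37 in the knockout animals, against 2.44 and 2.30 in the wild-type animals. The groups overlapped, and the log2 difference was -0.04 (SE 0.12, adjusted p = 0.997 in limma). Its 95% interval, -0.32 to 0.24, leaves room for a modest change in either direction. In TE, 2 of 12089 genes passed (0.0165%; 1 with the animal as replicate block), Arntl and Rpl13a, a ribosomal protein gene with near-identical copies whose reads could be split among them. Levels of Spon1 fell in a clear order of knockout footprints, wild-type footprints, knockout total RNA and wild-type total RNA, with no overlap between neighbours in it.

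Set side by side per length, the balance between the spondins differed by genotype. In footprint reads per coding kb and per M of library reads, Spon2 had 118 and Spon1 126 in knockout 1, and Spon2 had 154 and Spon1 132 in knockout 3. In wild type 2 the same scale gave 0.425 for Spon2 and 99.2 for Spon1, and in wild type 3 it gave 0.511 and 92.0. Spon2 thus stood at 93.8% and 117% of the Spon1 level in the knockout animals, against 0.428% and 0.555% in the wild-type animals. In total RNA reads per exon kb and per M of library reads, Spon2 stood at 199.7% and 189.8% of Spon1 in the knockout animals, against 0.865% and 1.44% in the wild-type animals. On these scales Spon2 was thus above Spon1 in total RNA and near it in footprints of the knockout, and far below it in both in the wild type. These shares use the annotated lengths, since the region in which the authors counted reads is not given in the sources used here. On the deposited RPKM scale the balance in the knockout was another one. In knockout total RNA Spon2 had 157 and 146 RPKM, against 155 and 152 RPKM for Spon1. In knockout footprints Spon2 had 202 and 262 RPKM, against 346 and 359 RPKM for Spon1. The order of the spondins in the knockout thus depends on the length used, while Spon2 was far below Spon1 in the wild type on either scale.

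Among all genes, Spon2 held the first rank by log2 difference in both kinds of library, which is how it was chosen. The next genes in total RNA were Fabp7, the fatty acid binding protein of radial and Bergmann glia, C2cd4b, and Ttr, the thyroid hormone carrier made by choroid plexus. Fabp7 averaged 246.5 ± 3.07 RPKM in the knockout and 17.3 ± 0.965 RPKM in the wild type (log2 difference 3.76). C2cd4b averaged 53.8 ± 4.82 RPKM in the knockout and 3.59 ± 1.81 RPKM in the wild type (3.63). Ttr averaged 12835 ± 1530 RPKM in the knockout and 2799 ± 3664 RPKM in the wild type (3.59), with a spread in the wild type larger than its mean. In footprints the next were C2cd4b (4.91), Fabp7 (4.16) and Cnksr1 (3.84), a scaffold of Ras signalling. Cnksr1 footprints averaged 13.5 ± 3.10 RPKM in the knockout, against values listed at 0 in both wild-type animals. On the log2(RPKM + 1) scale, the gap between Spon2 and the next gene was larger than 2 log2 units in both kinds of library. For a gene listed at 0 in the wild type, such as Cnksr1 in footprints, the difference rests on the 1 added to RPKM. The gap to such genes depends on this choice. Spon1 lay in the upper part of the distribution, with 634 of the 12690 genes above its log2 difference in total RNA and 861 of the 12447 above it in footprints. The median log2 difference of all genes tested was -0.02 in total RNA and -0.03 in footprints. Of the 12690 genes in total RNA, 2810 had an unadjusted p under 0.05 in limma, and limma-voom on the recovered reads called 1623. In footprints these counts were 1294 of 12447 and 199, and in TE 550 of 12089 and 1. Counts at an unadjusted p and by limma-voom given below are to be set against these.

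**Figure D2:**
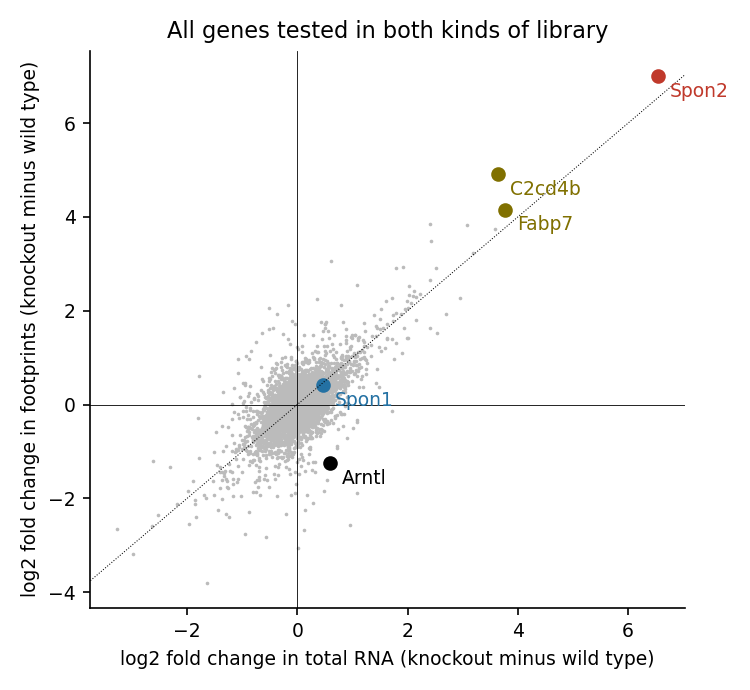
Log2 difference between knockout and wild type (knockout minus wild type) in total RNA on the horizontal axis and in footprints on the vertical axis, 1 point a gene, with a dotted line where both are equal. Spon2 stands apart at the upper right, at 6.53 and 7.0, and Spon1 lies at the edge of the main cloud, at 0.46 and 0.42.

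The libraries bear on these values in the following ways. The targeted gene Arntl had 267 and 272 RPKM of total RNA in the knockout animals, against 178.8 and 179.4 RPKM in the wild-type animals, while its footprints were 124 and 107 RPKM in the knockout animals, against 258 and 295 RPKM in the wild-type animals. Its TE fell by 1.84 on the log2 scale (limma adjusted p = 0.0367, a call lost when any 1 animal was left out). The total RNA difference was called higher (0.59, limma adjusted p = 0.0158; 0.110 without knockout 1 and 0.0897 without knockout 3), and the footprint difference of -1.25 did not pass (limma adjusted p = 0.0589), so total RNA of the targeted gene was not lower in the libraries labelled knockout. Recovered total RNA reads were 38.9 M and 43.2 M in the knockout, against 25.6 M and 27.7 M in the wild type, so depth and genotype go together there. Footprint reads were 41.0 M and 30.1 M in the knockout, against 38.1 M and 27.7 M in the wild type. Cerebellar markers were present in every animal: Gabra6, of granule neurons, had 184 and 199 RPKM in knockout animals, against 192 and 203 RPKM in wild-type animals. Of 62 marker genes in 9 lists tested in total RNA, limma called 5 higher and 4 lower (14.5%, against 4.09% of all genes). Members of most lists lay on both sides of 0, but several lists were skewed. All 7 tested microglia markers were negative, as were 6 of 7 oligodendrocyte and 6 of 7 Purkinje markers, while 8 of 9 granule neuron markers were positive. Fat2, Grin2c and Tiam1 of granule neurons, Cldn5 of endothelium and Tph2, the single positive of 6 tested brainstem markers, were called higher, and S100b of glia, Mag of oligodendrocytes, C1qb of microglia and Dcn of meningeal fibroblasts lower, while the glial genes Gfap and Aqp4 had positive log2 differences that did not pass. The called genes had log2 differences of 0.39 to 0.89 where higher and of -0.82 to -0.39 where lower. Leaving out knockout 1 ended all of these calls, and leaving out knockout 3 all but that of Dcn. In footprints limma called none of 63 tested marker genes, where 0.233% of all genes were called. In TE it called none of 61, where 0.0165% were called. The 9 granule neuron markers summed to 8570 and 8524 RPKM in knockout total RNA, against 6579 and 7429 RPKM in wild-type total RNA. The part of these shifts in the spondin values was not tested.

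Choroid plexus, a tissue that borders the cerebellum and can be carried along in dissection, went together with genotype and with animal. None of its 8 listed markers was at 0 in any library, and they summed to 12402 and 14604 RPKM in knockout total RNA, against 5706 RPKM in wild type 2 and 263 RPKM in wild type 3. All 6 that were tested had a positive log2 difference, limma called none, 5 had an unadjusted p under 0.05, and 5 were called by limma-voom. Ttr alone had 11753 and 13916 RPKM in the knockout animals, against 5390 and 208 RPKM in the wild-type animals. The wild-type animals thus differed 25.9-fold in Ttr. Spon2 total RNA had 8 reads in wild type 2 and 14 in wild type 3, which do not differ beyond counting error. Spon1 differed 1.02-fold between them. The part of choroid plexus in the spondin values was not tested. Wild type 2 also had 40.6 RPKM of the brainstem gene Hoxa5, against 0.727 RPKM in wild type 3, while the knockout animals had 1.39 and 1.57 RPKM.

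Spon1 lies on the same chromosome as the targeted gene. Its span begins 452 kb beyond the end of Arntl, so an effect of the deletion on neighbouring DNA, or of DNA that travels with the targeted allele, and an effect of losing the protein cannot be told apart for Spon1. Of 5 genes whose span starts within 500 kb of the Arntl span, 4 were tested in total RNA. Limma called 2 higher, Spon1 and Rassf10, where 2.48% of all genes were called higher. Spon1 itself is in this count and in the other counts of these genes, so of the 2 only Rassf10 is a further gene. There were 3 at an unadjusted p under 0.05, and 2, without Rassf10, were called by limma-voom. In footprints limma called none of them, where 0.233% of all genes were called, with 1 at an unadjusted p under 0.05 and 0 called by limma-voom. Rassf10, a Ras association domain gene 250.0 kb away on the other side of Arntl, had 6.93 and 6.91 RPKM in the knockout animals, against 3.43 and 4.26 RPKM in the wild-type animals, a log2 difference of 0.71 (SE 0.13, limma adjusted p = 0.0435). Without knockout 1, knockout 3 or wild type 2 that adjusted p was 0.236, 0.153 and 0.0902, and with limma-voom it was 0.0868. Btbd10, the gene nearest to Arntl on the side of Spon1, was not called (-0.30, adjusted p = 0.195 in limma).

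The genes next to Spon1 itself were not called by limma. Of 7 genes whose span starts within 500 kb of Spon1, 6 were tested in total RNA. Limma called none, against 4.09% of all genes. Of the 6, 1 had an unadjusted p under 0.05, against 2810 of all 12690 genes. With limma-voom on the recovered reads 1 was called, against 1623 of all genes. Rras2, a Ras family GTPase whose span lies 3.41 kb beyond the end of Spon1, had a log2 difference of -0.02 (adjusted p = 0.946 in limma). Far1, an enzyme of ether lipid synthesis 194 kb before Spon1 and thus between it and Arntl, had -0.14 (adjusted p = 0.328 in limma). Arntl, called higher, ends within this distance of Spon1 but starts beyond it and is not among these genes.

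The neighbours of Spon2 lie on a chromosome without the targeted gene. Of 15 genes whose span starts within 500 kb of Spon2, 11 were tested in total RNA. Limma called none, where 4.09% of all genes were called. Of the 11, 2 had an unadjusted p under 0.05, against 2810 of all 12690 genes, and limma-voom called 1, against 1623 of all genes. Their median log2 difference was 0.04. Slc5a1, a sodium-glucose cotransporter 35.3 kb from Spon2 toward lower coordinates, had a log2 difference of 0.18 (adjusted p = 0.437 in limma). Ctbp1, a transcriptional corepressor 29.3 kb from Spon2 toward higher coordinates, had 0.26 (adjusted p = 0.219 in limma). In footprints 10 of these genes were tested and limma called none, where 0.233% of all genes were called. Of the 10, 1 had an unadjusted p under 0.05 and 0 were called by limma-voom. The annotation holds no other gene that overlaps the span of Spon2 or of Spon1.

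**Figure D3:**
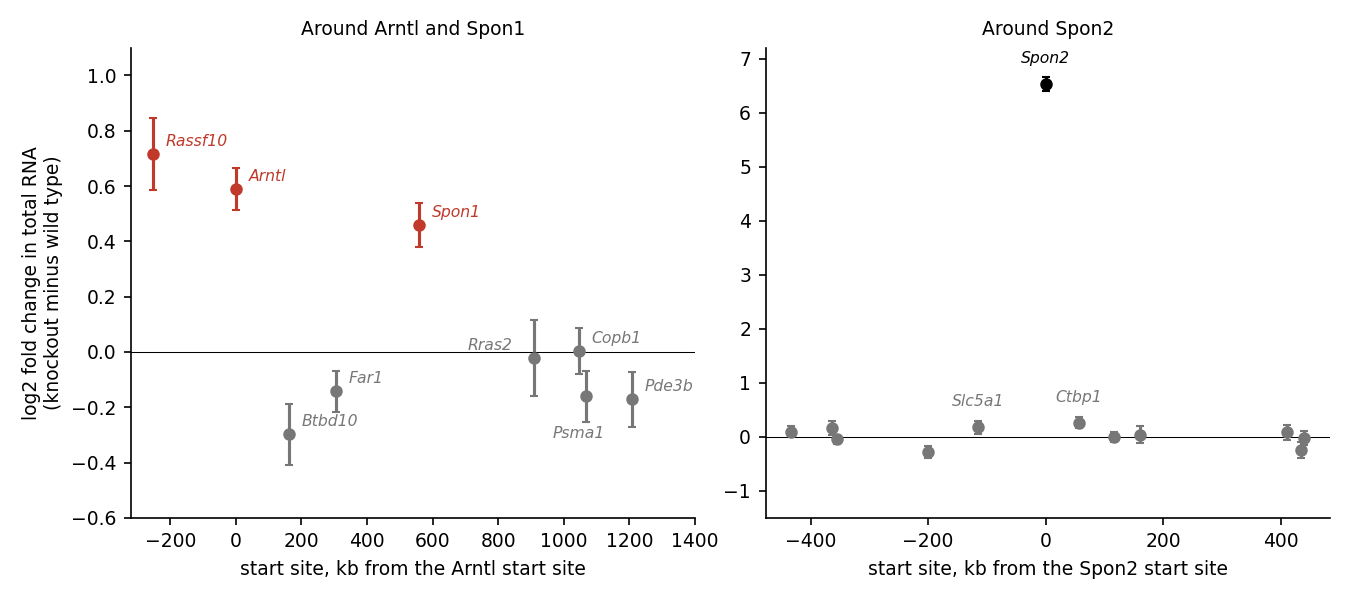
Log2 difference in total RNA (knockout minus wild type, bars are SE from limma) of tested genes against the distance of their start site in kb, on chromosome 7 from the Arntl start (left) and on chromosome 5 from the Spon2 start (right); genes called by limma are red, and Spon2, which was not tested, is black. Rassf10, Arntl and Spon1 lie above 0 with genes between them that do not, and Spon2 stands alone at 6.53.

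In the list of F-spondin receptors and the reelin pathway, 2 genes rose in total RNA. This list held 13 genes, of which 12 were tested, and 10 of these had a positive log2 difference. The median of the tested genes was 0.15. Lrp4 and Apoe were called higher and none lower, which is 16.7% of those tested, against 4.09% of all genes tested. At an unadjusted p under 0.05 there were 5, against 2810 of all 12690 genes, and limma-voom called 5, against 1623 of all genes. Lrp4, a receptor best known for its part at the neuromuscular junction, had 15.7 and 16.2 RPKM in the knockout animals, against 9.65 and 10.1 RPKM in the wild-type animals (0.64, SE 0.10, limma adjusted p = 0.0278). Apoe, the main lipid carrier of the brain, had 10047 and 9459 RPKM in the knockout animals, against 6598 and 7150 RPKM in the wild-type animals (0.51, SE 0.07, limma adjusted p = 0.0212). In neither gene did the genotypes overlap. Both calls were lost when knockout 1, knockout 3 or wild type 2 was left out, and that of Apoe also with quantile normalization (limma adjusted p = 0.542) or no variance trend (0.0693). With no filter, the adjusted p in limma was 0.108 for Lrp4 and 0.149 for Apoe.

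App and Lrp8, which bind F-spondin, did not pass the test. App, the precursor of amyloid peptides, had 630 and 641 RPKM in the knockout animals, against 611 and 623 RPKM in the wild-type animals (0.04, limma adjusted p = 0.763). Lrp8 had 1461 and 1296 RPKM in the knockout animals, against 999 and 1105 RPKM in the wild-type animals (0.39, limma adjusted p = 0.0828). Vldlr, the other classical reelin receptor, had 56.5 and 56.8 RPKM in the knockout animals, against 44.7 and 46.4 RPKM in the wild-type animals (0.31, limma adjusted p = 0.117). Reln, the secreted signal made by granule neurons, had 2708 and 2844 RPKM in the knockout animals, against 2228 and 2669 RPKM in the wild-type animals (0.19, limma adjusted p = 0.334). Each of these had higher values in both knockout animals than in both wild-type animals, without passing the threshold. Reln is also one of the granule neuron markers whose sum was higher in the knockout, and Apoe is made by glia and by choroid plexus as well; the part of those markers in these values was not tested. In footprints limma called none of the 12 genes tested in this list, where 0.233% of all genes were called. Of the 12, 4 had an unadjusted p under 0.05 and 2 were called by limma-voom, and their median log2 difference was 0.05.

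F-spondin is cut by plasmin, and the activator of that protease was higher as well. Plat, tissue plasminogen activator, had 348 and 364 RPKM of total RNA in the knockout animals, against 234 and 211 RPKM in the wild-type animals (0.68, SE 0.09, limma adjusted p = 0.0160). Its footprints were 899 and 904 RPKM in the knockout animals, against 452 and 434 RPKM in the wild-type animals (1.02, SE 0.10, limma adjusted p = 0.0431). It was the only called gene of the 4 tested in a list of 6 genes of the plasmin system in either kind of library. The total RNA call was lost without knockout 1 or knockout 3 (limma adjusted p = 0.0830 and 0.0802). The footprint call was lost without each of the 4 animals (limma adjusted p between 0.186 and 0.319), with a pseudocount of 0.1 (0.0559) and with no variance trend (0.113). With no filter neither call was kept (limma adjusted p = 0.0853 and 0.139). Plg, the plasminogen gene itself, was at 0.165 and 0.111 RPKM in the knockout animals, against 0.184 and 0.402 RPKM in the wild-type animals, and was too low to be tested.

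Other proteins with thrombospondin repeats moved in both directions. The list held 61 such genes, and 40 were tested. In total RNA 3 rose and 4 fell, which is 17.5% of those tested, against 4.09% of all genes, and the median log2 difference was -0.07. At an unadjusted p under 0.05 there were 17, against 2810 of all 12690 genes, and limma-voom called 10, against 1623 of all genes. Adamts18, a secreted metalloprotease, had 36.2 and 32.1 RPKM in the knockout animals, against 9.34 and 10.1 RPKM in the wild-type animals (1.71, SE 0.11, limma adjusted p = 0.00252). Adamts2, which trims procollagen, had 379.9 and 376 RPKM in the knockout animals, against 241 and 248 RPKM in the wild-type animals (0.62, SE 0.07). Sema5b, a membrane-bound axon guidance protein, had 2.40 and 2.26 RPKM in the knockout animals, against 0.774 and 0.919 RPKM in the wild-type animals (0.85, SE 0.14). The genotypes did not overlap in any of these genes.

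Those that fell were Thbs1, Adamts20, Rspo3 and Sema5a, 4 of the 40 tested, while 1.61% of all genes were called lower. Thbs1, a thrombospondin that promotes synapse formation, had 35.8 and 33.0 RPKM in the knockout animals, against 58.3 and 58.7 RPKM in the wild-type animals (-0.75, SE 0.09). Sema5a, the close relative of Sema5b, had 573 and 521 RPKM in the knockout animals, against 803 and 741 RPKM in the wild-type animals (-0.50, SE 0.09). Adamts20, a metalloprotease, and Rspo3, an enhancer of WNT signals, had log2 differences of -0.73, only just inside the threshold, and -0.71. Thbs2 had 1.12 and 1.11 RPKM in the knockout animals, against 1.41 and 1.58 RPKM in the wild-type animals, and was not called (-0.24, limma adjusted p = 0.371). With no filter limma kept none of the 7 calls (adjusted p of Adamts18 0.0502). Of the 7, Adamts18 was the only one kept when knockout 1 or knockout 3 was left out. With wild type 2 left out, 3 of the 7 remained (Adamts18, Adamts2 and Thbs1), and with wild type 3 left out, 5 remained. In footprints limma called none of 37 tested genes, where 0.233% of all genes were called. At so low a share, none called says little about a list of this size. There were 11 at an unadjusted p under 0.05 and 3 called by limma-voom. In TE limma called none of 34, where 0.0165% of all genes were called, with 3 at an unadjusted p under 0.05 and 0 called by limma-voom.

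Partners of mindin were low or did not pass the test in limma. Of 8 genes for its integrins and for sensors of lipopolysaccharide, 4 were tested in total RNA and limma called none, where 4.09% of all genes were called, with 1 at an unadjusted p under 0.05 and 0 called by limma-voom. Itgam, an integrin subunit of microglia and neutrophils, had 0.781 and 0.531 RPKM in the knockout animals, against 1.19 and 1.44 RPKM in the wild-type animals, and was below the filter. Its partner Itgb2 had 1.03 and 0.981 RPKM in the knockout animals, against 0.713 and 1.61 RPKM in the wild-type animals (-0.08, limma adjusted p = 0.874). Both lie near the filter, where a change is hard to detect. In footprints limma called none of 5, where 0.233% of all genes were called, with 2 at an unadjusted p under 0.05 and 0 called by limma-voom. The largest footprint differences of the list, named after their values were seen, were 1.57 for the integrin subunit Itga5 (limma adjusted p = 0.117) and -1.21 for the lipopolysaccharide receptor Tlr4 (limma adjusted p = 0.0862).

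Genes of the floor plate and of midline guidance, the setting in which F-spondin was found, were tested in small number. Of 11 genes 8 were tested in total RNA and limma called none, where 4.09% of all genes were called, with 4 at an unadjusted p under 0.05 and 2 called by limma-voom, and the median log2 difference was -0.28. Shh, the secreted signal of the floor plate, had 1.26 and 1.32 RPKM in the knockout animals, against 0.928 and 1.15 RPKM in the wild-type animals (0.17, limma adjusted p = 0.532). Foxa2, the floor plate transcription factor, was listed at 0 in total RNA of both knockout animals and of wild type 2 and at 0.0681 RPKM in wild type 3. In footprints limma called none of 8, where 0.233% of all genes were called, with 3 at an unadjusted p under 0.05 and 0 called by limma-voom.

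**Figure D4:**
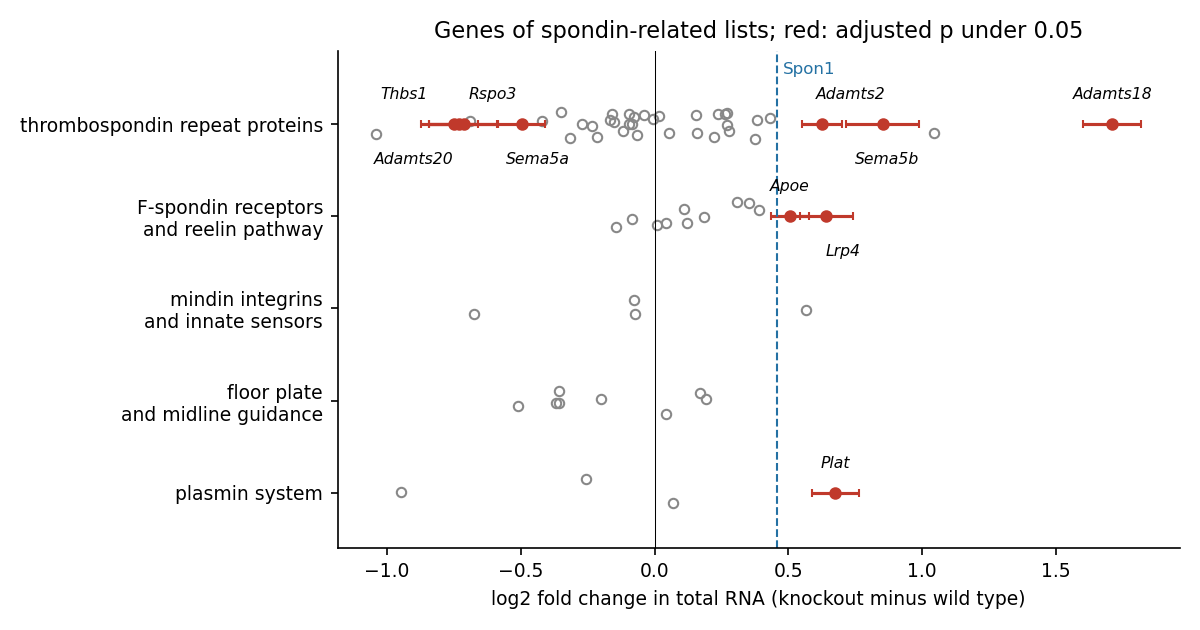
Log2 difference in total RNA (knockout minus wild type) of tested genes in 5 lists, 1 point a gene; red points with SE bars are called by limma, and the dashed line marks Spon1 at 0.46. Called genes lie on both sides of 0 among thrombospondin repeat proteins. They lie above 0 among F-spondin receptors and reelin pathway genes (Lrp4, Apoe) and in the plasmin system (Plat).

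The genes whose values were most like those of a spondin were found by the root mean square difference of log2(RPKM + 1), each gene centred on its own mean, over the 8 libraries and 12088 other genes. This measure is a description, since genotype and kind of library are shared by all genes. Nearest to Spon2 were C2cd4b (1.37), Fabp7 (1.51), Slc5a8 (1.67), Prlr (2.00) and Cnksr1 (2.01), none of which came close to it. Slc5a8, a monocarboxylate transporter, had 11.8 and 10.7 RPKM of total RNA in the knockout animals, against 0.409 and 0.479 RPKM in the wild-type animals. Prlr, the prolactin receptor, had 70.4 and 76.7 RPKM in the knockout animals, against 15.0 RPKM in wild type 2 and 3.20 RPKM in wild type 3. The summed choroid plexus markers had the same order of animals in total RNA (12402 and 14604 RPKM, against 5706 and 263 RPKM). The part of choroid plexus in the Prlr values was not tested.

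Spon1 had close companions. Nearest were Hk1 (0.0607), a hexokinase of glycolysis, Htra1 (0.0791), a secreted serine protease, and Poc1a (0.0844), a protein of centrioles. Hk1 had log2 differences of 0.40 in total RNA and 0.36 in footprints. Htra1 had 0.38 in both, and Poc1a had 0.53 and 0.41. These genes were picked for values like those of Spon1, so their like differences follow from that choice. Among all 12690 genes tested in total RNA, 634 had a log2 difference above that of Spon1. No other gene compared had a difference as large as that of Spon2 on the log2(RPKM + 1) scale, which is how Spon2 was chosen.

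**Figure D5:**
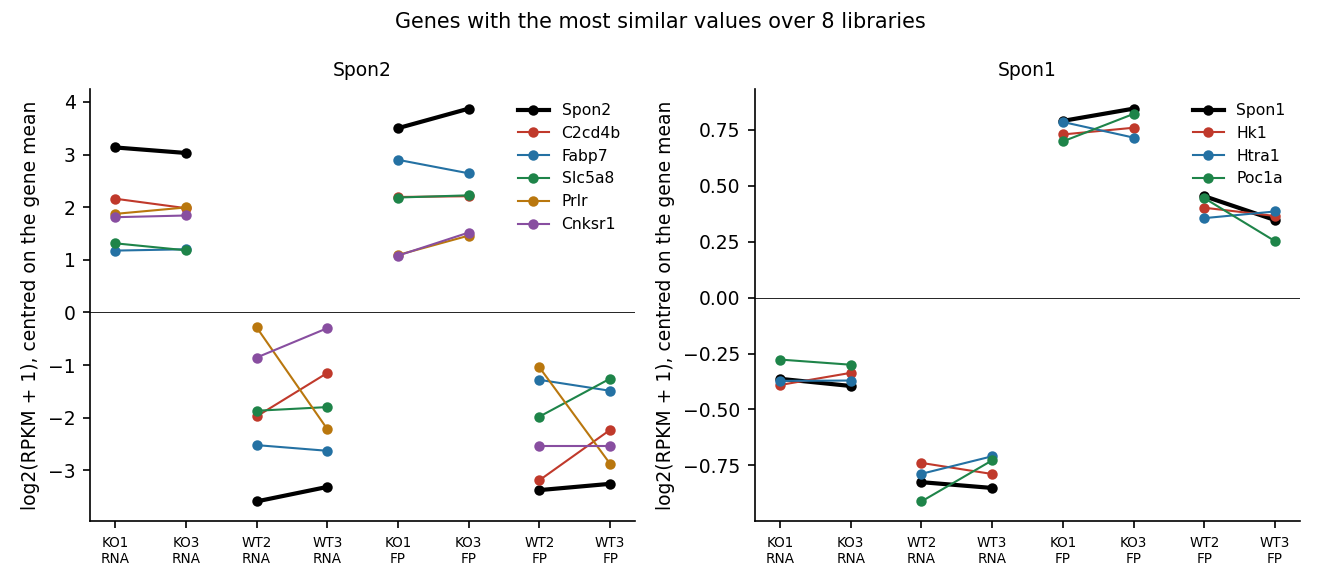
Log2(RPKM + 1), centred on each gene's mean, in the total RNA (RNA) and footprint (FP) libraries of knockout (KO) and wild-type (WT) animals, for Spon2 with its 5 nearest genes (left) and Spon1 with its 3 nearest (right); the vertical scales differ. Spon2 lies outside its companions in every library, and Spon1 runs close to its own.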

How the data were processed

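Footprint and total RNA libraries of 2 knockout and 2 wild-type cerebella were analysed, 8 libraries in all; 2 further total RNA libraries (knockout 2, wild type 1) had no column and were not analysed here, so the planned comparison became 2 against 2. The submitters' processing notes name Bowtie, STAR and Cufflinks and the build mm10; versions, settings and the counting rule are not given in the sources used here. Per the file headers, the authors deposited RPKM for each library, TE as a ratio, and a mean read count for each gene. In 47790 of 47790 values with both RPKM at least 1, the deposited ratio equalled footprint over total RNA RPKM within 2%. The mean read count is the geometric mean of 8 whole counts: 99.93% of 4392 values of low genes came within 0.1 of a whole number, and reads were recovered for 13880 genes. Gene models came from GENCODE M21, which holds 21951 of the 22046 IDs. Replicates were not copies (chi-square over degrees of freedom 12.7 to 41.4).

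Genes averaging at least 1 RPKM over the compared libraries were fitted as log2(RPKM + 1) by limma 3.58.1 (R 4.3.3), using its trend of variance with level. For TE, the term was genotype by library kind. All p-values were adjusted over all genes fitted. The script was tested on simulated data. Animals pair a footprint with a total RNA library, since both come from 1 lysate. Their deviations from the group means correlated at -0.0040 among knockout animals and 0.26 among wild-type animals. The members and gene lists were chosen with earlier results of these data known. Genes were named by rule: called genes of each list (at most 8), set receptors, the nearest and called neighbours within 500 kb, the 3 next rises, and the 5 and 3 genes most alike. Alternatives were a pseudocount of 0.1, no filter, quantile normalization, no variance trend, limma-voom on recovered reads, all libraries in a single fit, an animal block and leaving out each animal. For the counts of called genes, quantile normalization, no trend and the single fit were chosen after seeing the data, as were all alternatives for the lists.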

Additional observations from a re-analysis of the deposited data

How the results depend on the processing

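Spon2 stayed far higher in the knockout under every alternative run. With a pseudocount of 0.1 its log2 difference was 7.69 in total RNA and 7.99 in footprints, and with limma-voom on recovered reads 7.81 and 8.13, since its wild-type values lie near the pseudocount. The Spon1 difference in total RNA kept its direction throughout, but 0.46 was no longer past the threshold with no filter (limma adjusted p = 0.0853) or no variance trend (0.0687), nor without any 1 animal (0.44 to 0.47). Its TE difference was 0.0018 without knockout 1 and ranged from -0.085 to 0.0018 over the animals left out, and with the replicate block, which pairs the libraries of an animal, it stayed at -0.04 (SE 0.15). Called genes in total RNA (519) numbered 26 with no filter, 1623 with limma-voom, 217 in the single fit and 117 to 563 without 1 animal. In footprints (29) they numbered 17 with a pseudocount of 0.1, 1 with no filter, 199 with limma-voom, 315 in the single fit and 1 to 6 without 1 animal. In TE (2) they numbered 5 with a pseudocount of 0.1, 4 with no filter, 0 with quantile normalization or no trend, 1 with limma-voom, 1 with the replicate block and 0 without any 1 animal. The causes were not tested. Leaving out an animal leaves 1 in its group, which is then assumed to vary like the others. The labels name no pairs of animals between the genotypes, so no paired analysis of total RNA or of footprints was possible. Depth limits Spon2 in the wild type, where 8 to 16 reads carry each value.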
